A study of Mus musculus with 6 samples.

Results

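The mitochondrial respiratory chain was described through 72 genes, of 47719 gene identifiers measured, in prostates of mice that carried 0, 1 or 2 copies of the Trp53 R270H allele. Genes entered by symbol: the Nduf genes of the a, b, c, s and v series, the Uqcr genes, Sdha to Sdhd, 10 named Cox genes and the mitochondrial mt-Nd, mt-Co, mt-Cytb and mt-Atp genes. A mean of at least 1 FPKM (a level per exon length and per mapped fragment, which can be compared between genes) was also required, and all 72 genes with a matching symbol reached it. Of these, 59 lie in the nuclear genome and 13 in the mitochondrial genome. By symbol, the nuclear genes were 37 of complex I, 4 of complex II, 8 of complex III and 10 of complex IV. The mitochondrial ones were 7 of complex I, 1 of complex III, 3 of complex IV and 2 of complex V. Every Nduf gene, Ndufa4 and Ndufa4l2 included, was thus counted under complex I, wherever its protein works. The study compared 2 wildtype mice (Trp53+/+, mice 39 and 41), 2 heterozygous mice (Trp53R270H/+, mice 37 and 40) and 2 homozygous mice (Trp53R270H/R270H, mice 47 and 49), all of the strain B6.129S4-Trp53tm3.1Tyj/J. Each was about 3 months old, received 5 Gy to the whole body and gave its prostate 6 h afterwards. Irradiation was thus shared by the controls, and no unirradiated prostate entered the comparison. Whole glands were measured, so fewer cells of a type and less RNA per cell cannot be told apart.

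The respiratory chain sits in the inner mitochondrial membrane. Complex I takes electrons from NADH and complex II takes them from succinate, complex III passes them from ubiquinol to cytochrome c, and complex IV hands them to oxygen, while complex V uses the proton gradient built by complexes I, III and IV to make ATP. Subunits of complexes I, III, IV and V come from both genomes, so their assembly draws on nuclear transcription and on the separate transcription of the mitochondrial chromosome, whereas complex II is wholly nuclear. Several nuclear subunit genes are known targets of the transcription factors NRF1, GABP (which binds ETS motifs) and YY1. Mouse prostate secretes citrate, and p53 is known to act on mitochondria through apoptosis and metabolism.

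Promoters of 4 nuclear members are shown because they hold motifs of factors known for respiratory genes, letters that the choice of genes did not use. RefSeq promoters (GRCm38.p6, 250 bases before to 50 after the start) were found for 48 of the 59 nuclear members, and only bases before the start are printed, 5′ to 3′ on the strand of the gene. Capitals mark the NRF1 motif (GCGC, any base, then TGCGC) and the ETS motif (CCGGAAG), each searched on both strands, and no shown matches of the 2 motifs overlap. Cox6a1 and Sdhd hold both motifs, and the Sdha stretch holds the NRF1 motif 3 times. The Ndufa8 stretch holds it once. They lie on the minus strand at chr5:115348959-115349140 (Cox6a1), chr9:50603869-50603948 (Sdhd), chr13:74350241-74350358 (Sdha) and chr2:36049339-36049388 (Ndufa8).
Cox6a1: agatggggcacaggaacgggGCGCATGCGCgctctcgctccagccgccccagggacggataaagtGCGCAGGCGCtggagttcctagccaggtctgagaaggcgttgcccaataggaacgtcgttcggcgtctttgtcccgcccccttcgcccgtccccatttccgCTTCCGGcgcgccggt
Sdhd: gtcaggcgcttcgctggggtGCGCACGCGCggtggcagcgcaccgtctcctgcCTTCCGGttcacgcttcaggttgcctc
Sdha: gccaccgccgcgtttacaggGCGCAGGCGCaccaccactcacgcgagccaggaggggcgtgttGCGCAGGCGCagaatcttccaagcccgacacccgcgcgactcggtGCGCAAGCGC
Ndufa8: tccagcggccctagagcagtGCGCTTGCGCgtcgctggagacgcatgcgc

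The NRF1 motif was in promoters of 11 of the 48 matched members (22.9%), against 11.0% of the 10047 matched genes tested here and 5.19% of all 27025 genes in the RefSeq table. ETS motifs were in 11 members (22.9%), against 19.0% of the tested and 9.93% of all genes. The YY1 motif, AAGATGGC in either orientation, was in 7 members (14.6%), against 5.03% and 3.19%. Any of the 3 motifs was found in 26 members, none in 22, and NRF1 with ETS motifs in 2. These matches describe letters in the window and not bound sites. Members with and without the NRF1 motif had median log2 fold changes of 0.12 and 0.14 in heterozygous against wildtype mice and of 0.01 and 0.02 in homozygous against wildtype mice. With and without the ETS motif they were 0.12 and 0.14 for heterozygous and -0.09 and 0.02 for homozygous mice. With and without the YY1 motif they were 0.21 and 0.13 for heterozygous and 0.12 and -0.01 for homozygous mice.

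Mouse 47 stood apart from the others in tissue markers. The summed FPKM of 9 luminal epithelium markers was 22109.6 and 23926 in the wildtype, 18006 and 15620.3 in the heterozygous, and 1643 and 14068 in the homozygous mice 47 and 49. Their median deviation from their own means, on the log2 scale, was smaller, at 0.37 and 0.19, 0.16 and -0.04, and -0.63 and 0.01 in the same order. All 9 had lower means than wildtype in heterozygous (52.8% of all genes) and homozygous mice (55.0%). The homozygous log2 fold changes ran from -3.35 to -0.18. Probasin (Pbsn), the androgen-dependent secretory gene of luminal cells, was at 257 FPKM in mouse 47 and between 7329 and 11512 in the other 5. Of 7 seminal vesicle markers, 3 were listed at 0 in at least 1 mouse. The sum of the 7 ran from 3484 in wildtype mouse 39 to 56677 in heterozygous mouse 37. In homozygous against wildtype mice 1 of the 7, which was lower, passed the adjusted limma test (0.384% of all genes). Of 15 skeletal muscle markers 0 passed the adjusted limma test in homozygous (0.384% of all genes) or heterozygous against wildtype mice (0%). At an unadjusted limma p-value under 0.05 there were 14 in homozygous (18.0% of all genes) and 14 in heterozygous against wildtype mice (6.87%). Their summed FPKM was 2241 and 3221 in the wildtype, 6136 and 6446 in the heterozygous, and 7576 and 6513 in the homozygous mice. Smooth muscle markers summed to between 1644 and 2672 FPKM, highest in mouse 47, and adipocyte markers to between 321 and 689, also highest there. The part of these tissues in the results was not tested. Results are given with and without mouse 47 where it decides them. The fragment counts are not in the files and their number is unknown. The spacing of the lowest FPKM values put the number of fragments between 0.785 (mouse 47) and 1.07 (mouse 49) times that of mouse 39.

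Nuclear members were expressed well above the average gene. Their mean FPKM over the 6 mice ran from 3.58 for Ndufa4l2 to 599 for Cox4i1, with a median of 120.5, and 58 of the 59 were above the median of 9.35 of all 13818 genes tested. Complex IV subunits were the most abundant, from 121 for Cox7a2 to 599 for Cox4i1, with a median of 246 FPKM. Genes counted under complex I by symbol had a median of 92.2 FPKM and the widest range. It ran from Ndufa4l2, a paralogue known as a hypoxia-inducible gene, to Ndufa1, a small accessory subunit, at 272. The 4 complex II genes lay close together, from 81.1 for Sdhd to 93.6 for Sdhc, and complex III ran from 78.5 for Uqcrc2 to 291 for Uqcr11. The nuclear members lie on 18 chromosomes. Their exon bases, joined over all annotated transcripts of a gene, were few, with a median of 1381 against 4165 for the other genes tested.

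**Figure D1:**
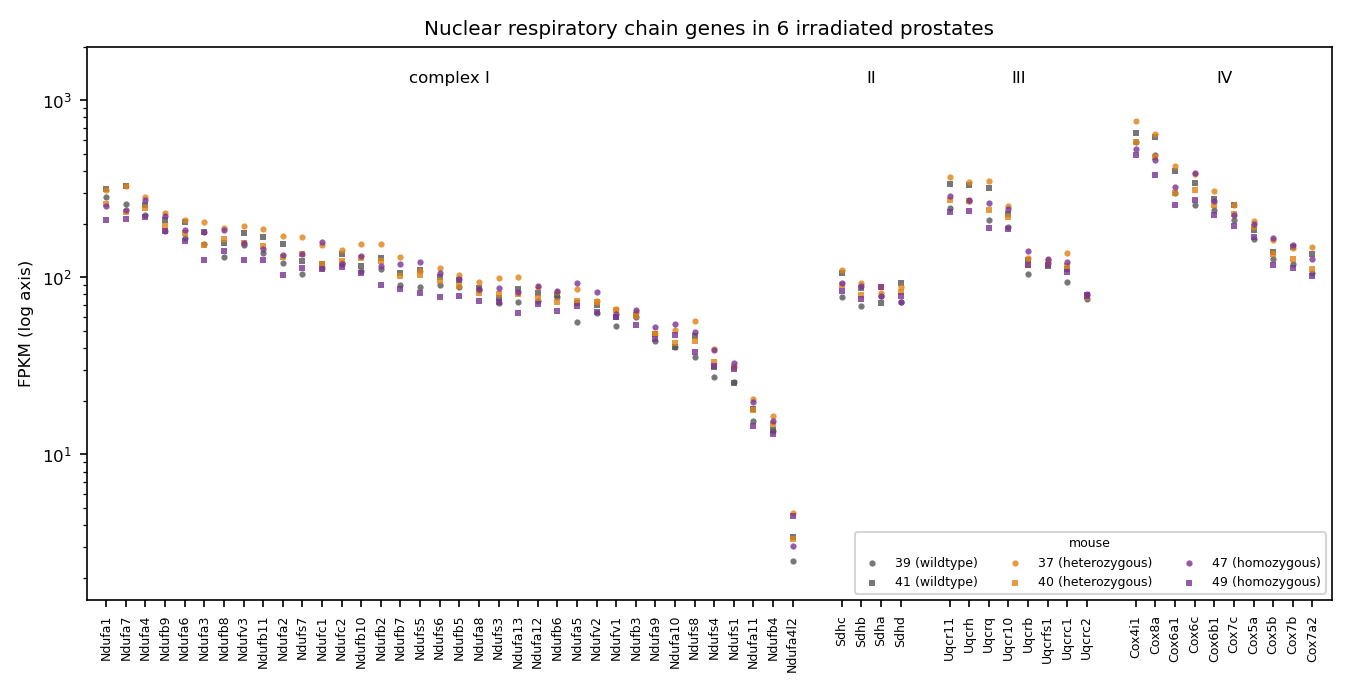
FPKM (log axis) of 58 of the 59 nuclear members in each of the 6 mice, grouped by complex and ordered by mean level within it. Points of a gene lie close together compared with the range between genes, from about 3.58 FPKM on average for Ndufa4l2 to 599 for Cox4i1.

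No nuclear or mitochondrial member passed the test in any comparison of genotypes. With limma, 0 of the 72 members had an adjusted p-value under 0.05 for the 3 genotypes together (0.101% of all genes tested), for homozygous against wildtype mice (0.384%), for heterozygous against wildtype mice (0%) or for homozygous against heterozygous mice (0.0145%). At an unadjusted limma p-value under 0.05, the 3 genotypes together gave 1 member (11.5% of all genes), homozygous against wildtype mice 3 members (18.0%), heterozygous against wildtype mice 1 member (6.87%) and homozygous against heterozygous mice 1 member (6.39%). The smallest adjusted p-value of a member was 0.228, for Ndufs1. Over 14 other settings the number of members called remained 0, and the smallest adjusted p-value was 0.0750, without homozygous mouse 49. These tests rest on 2 animals per genotype. The 95% interval of a nuclear member's fold change had a median width of 1.37-fold to either side, and lay within 1.5-fold of no difference for 34 of the 59 nuclear members in homozygous and for 27 in heterozygous against wildtype mice. For the 13 mitochondrial members it was 2.06-fold to either side, and within 1.5-fold for 0 of them.

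By their means, most nuclear members were slightly higher in heterozygous than in wildtype mice, by an amount that 1 mouse could set. The mean was above wildtype for 56 of 59 (47.2% of all genes tested were higher), with a median log2 fold change of 0.14, or 1.10-fold, where all genes had a median of -0.01. The other 3 were lower (52.8% of all genes). After scaling to the same sum without the mitochondrial genome 42 of 59 were higher, with a median of 0.06, where all genes had a median of -0.09. Above the median of all genes lay 57 of the 59 with this scaling and 57 in the reported fit. Without wildtype mouse 39, which also stood apart in seminal vesicle markers, 34 of 59 were higher with a median of 0.02, and without heterozygous mouse 37 it was 35 with a median of 0.03. Without mouse 41 the median was 0.24, and without mouse 40 it was 0.26. Both heterozygous values were above both wildtype values for 15 nuclear members (19.2% of all genes) and below both for 0 (19.9%). Homozygous mice had no common direction against wildtype mice, with 32 nuclear members higher (45.0% of all genes) and 27 lower (55.0%), and a median log2 fold change of 0.02. Without mouse 47 this median was -0.15 and 11 members were higher. Without mouse 49 it was 0.14 and 44 were higher. Without wildtype mouse 39 or 41 it was -0.09 or 0.12. Both homozygous values were above both wildtype values for 4 nuclear members (21.3% of all genes) and below both for 5 (28.7%). Against heterozygous mice, 52 of 59 nuclear members were lower in homozygous mice (54.2% of all genes), but only 26 after quantile normalization. After scaling to the same sum without the mitochondrial genome 30 were lower, but that scaling moved the median of all genes from -0.03 to 0.11. Above the median of all genes lay 10 of the 59 with this scaling and 10 in the reported fit. The median of the nuclear members was -0.14, against -0.01 with 31 lower without mouse 49, -0.03 with 40 lower without mouse 37, -0.25 with 54 lower without mouse 40 and -0.29 with 55 lower without mouse 47. Both homozygous values were below both heterozygous values for 10 (24.1%). No nuclear member was ordered by allele number over all 6 mice, in the rising direction (3.85% of all genes) or in the falling one (4.98%).

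**Figure D2:**
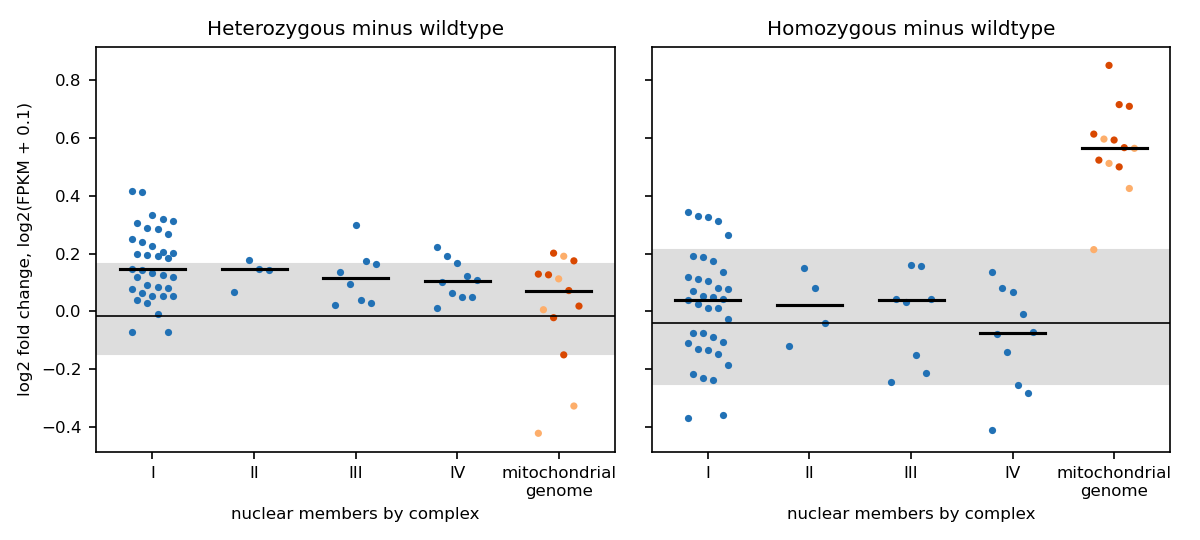
Log2 fold change on the log2(FPKM + 0.1) scale of each member in heterozygous (left) and homozygous (right) against wildtype mice, with nuclear members (blue) by complex and the 13 mitochondrial members (orange, paler for the 5 with a near-identical nuclear copy). Short bars are medians, the grey band holds the middle of all 13818 genes between their quartiles, and the thin line is their median. Nuclear complexes I to IV lie above the thin line by their medians in heterozygous mice, while in homozygous mice only the median of the mitochondrial members, 0.57, lies above the band.

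Complex I has core subunits, which carry the electron path from NADH to ubiquinone, and accessory subunits around them. Ndufs1, the largest core subunit, which holds iron-sulfur clusters, was at 25.7 and 25.2 FPKM in the wildtype, 31.0 and 31.1 in the heterozygous, and 32.8 and 30.5 in the homozygous mice. All 4 mice with a mutant allele lay above both wildtype mice, by less than 1.5-fold. Homozygous mice differed from wildtype by 0.31 on the log2 scale (standard error 0.11, limma adjusted p = 0.228), and heterozygous mice by 0.29 (standard error 0.11, limma adjusted p = 0.680). Its unadjusted F-test p-value of 0.048 was the only one under 0.05 among the 72 members.

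Ndufs7, the core subunit beside the ubiquinone site, was at 105 and 123 FPKM in the wildtype, 169 and 136 in the heterozygous, and 136 and 113 in the homozygous mice. Heterozygous mice were above the wildtype mice, and the homozygous mice overlapped them. Against wildtype the log2 difference was 0.41 with 1 mutant allele (standard error 0.18, limma adjusted p = 0.780) and 0.12 with 2. Ndufv1, which binds NADH, was at 52.95 and 59.9 FPKM in the wildtype, 66.5 and 65.5 in the heterozygous, and 62.4 and 59.4 in the homozygous mice, a narrower spread.

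Accessory subunits of complex I went both ways in homozygous mice. Ndufa10 was at 40.5 and 40.3 FPKM in the wildtype, 50.3 and 42.7 in the heterozygous, and 54.4 and 47.4 in the homozygous mice, so that all mutant values were above the wildtype ones. Homozygous minus wildtype, it came to 0.33 on the log2 scale (standard error 0.14, limma adjusted p = 0.286). Ndufs4, whose loss is known to cause a Leigh-like disease, was at 27.3 and 31.2 FPKM in the wildtype, 39.4 and 33.1 in the heterozygous, and 38.9 and 31.7 in the homozygous mice, again with no overlap with wildtype. Ndufa5 was at 55.7 and 71.5, 85.7 and 73.7, and 93.3 and 68.9 FPKM in the same order of mice, and mouse 49 overlapped the wildtype mice.

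Ndufa1, needed for assembly of the membrane arm, was lower in both homozygous mice, with 283 and 314 FPKM in the wildtype, 310.5 and 259 in the heterozygous, and 254 and 210.3 in the homozygous mice. Homozygous minus wildtype, it came to -0.37 on the log2 scale (standard error 0.18, limma adjusted p = 0.350). Ndufa7 was at 259 and 328 FPKM in the wildtype, 326 and 235 in the heterozygous, and 241 and 215 in the homozygous mice, with a log2 fold change of -0.36 (adjusted p = 0.447 from limma). For both genes the homozygous values did not overlap the wildtype ones, while 1 heterozygous value lay within the wildtype range and the other below it. In heterozygous mice Ndufb10, an accessory subunit, was at 154 and 128 FPKM against 109 and 116 in the wildtype mice, a log2 fold change of 0.32 (adjusted p = 0.849 from limma). Ndufa4l2 was the least expressed member, at 2.49 and 3.43, 4.69 and 3.31, and 3.02 and 4.52 FPKM in the same order, and its groups overlapped.

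The 4 complex II genes did not separate the genotypes as a group. Sdha, its flavoprotein, which also works in the tricarboxylic acid cycle, was at 78.3 and 71.9 FPKM in the wildtype, 82.1 and 87.8 in the heterozygous, and 78.9 and 88.1 in the homozygous mice. Its mutant values lay above the wildtype ones, mouse 47 by less than 1 FPKM. Sdhd, a membrane anchor, was at 72.1 and 92.6, 88.2 and 83.1, and 72.2 and 78.4 FPKM, with a log2 fold change in homozygous mice of -0.12 (adjusted p = 0.713 from limma). Sdhc, the other membrane anchor, ran from 77.6 FPKM in mouse 39 to 110.6 in mouse 37. The median log2 fold change of the 4 genes was 0.15 in heterozygous and 0.02 in homozygous mice.

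Complex III included the steadiest genes. Uqcrc2, a core structural protein, was at 75.05 and 79.2 FPKM in the wildtype, 79.9 and 77.6 in the heterozygous, and 80.1 and 78.9 in the homozygous mice. Uqcrfs1, the Rieske iron-sulfur protein, stayed between 116 and 126 FPKM in all 6 mice. The small subunit gene Uqcrh, the hinge protein, was more variable, at 271 and 333 FPKM in the wildtype, 344 and 271 in the heterozygous, and 272 and 236 in the homozygous mice. Homozygous minus wildtype, the log2 difference was -0.24 (limma adjusted p = 0.558). All 8 complex III genes had a heterozygous mean above wildtype (47.2% of all genes), with a median log2 fold change of 0.12. The homozygous mean was above wildtype for 5 of 8 (45.0%), with a median of 0.04.

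Complex IV was the only nuclear complex with a negative median in homozygous mice, -0.07 on the log2 scale. Of its 10 genes, 7 were lower (55.0% of all genes). Cox4i1, its most abundant subunit, which carries a regulatory nucleotide site, was at 585 and 653 FPKM in the wildtype, 760.04 and 579.6 in the heterozygous, and 528 and 490.3 in the homozygous mice. The homozygous values were the lowest of the 6, with a log2 fold change of -0.28 (standard error 0.22), adjusted p = 0.528 from limma. Cox8a, a very small subunit, was at 491 and 619.9 FPKM in the wildtype, 645 and 480.4 in the heterozygous, and 457 and 378 in the homozygous mice. It had the most negative homozygous log2 fold change of the 59 nuclear members, -0.41 (standard error 0.24), adjusted p = 0.421 from limma. Cox6a1 was at 298 and 398, 425 and 301, and 325 and 256 FPKM in the same order, and its groups overlapped.

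The muscle isoforms of complex IV, which are outside the 72 members, took other values than the isoforms found in most tissues. Cox6a2 was at 48.9 and 57.2 FPKM in the wildtype, 94.1 and 96.3 in the heterozygous, and 126 and 86.9 in the homozygous mice. Cox7a1 was at 36.4 and 47.7, 78.4 and 77.0, and 121 and 68.8 FPKM, and Cox8b at 43.6 and 53.7, 107 and 88.3, and 158 and 85.4 FPKM. For all 3 genes each mutant value was above each wildtype value. The homozygous log2 fold changes were 0.98 for Cox6a2 (adjusted p = 0.136), 1.13 for Cox7a1 (adjusted p = 0.170) and 1.26 for Cox8b (adjusted p = 0.164), all from limma and none past the threshold. The 15 skeletal muscle markers were all above 0 in every mouse. All 15 had higher means than wildtype in heterozygous (47.2% of all genes) and in homozygous mice (45.0%). Their part in the values of respiratory chain genes was not tested. The brown adipocyte markers Ucp1 and Cidea summed to 0.744 and 0.604 FPKM in the wildtype, 11.5 and 6.81 in the heterozygous, and 26.2 and 0.722 in the homozygous mice, and their part in the results was not tested.

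**Figure D3:**
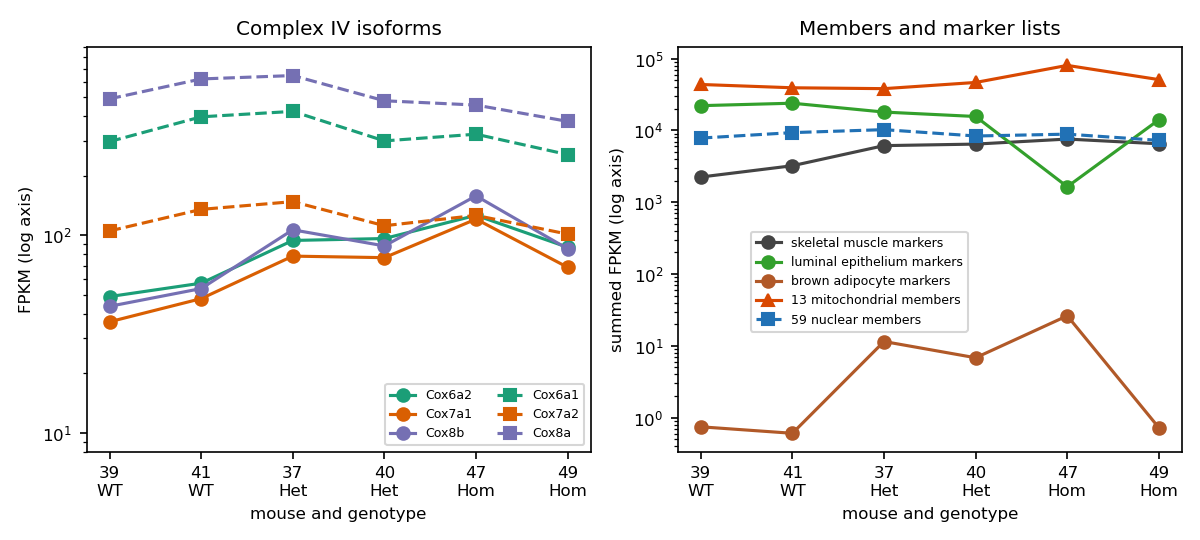
Left, FPKM (log axis) by mouse of the muscle isoforms Cox6a2, Cox7a1 and Cox8b (solid) and of their counterparts Cox6a1, Cox7a2 and Cox8a (dashed). Right, summed FPKM (log axis) by mouse of the 13 mitochondrial and 59 nuclear members and of 3 marker lists: the muscle isoforms and skeletal muscle markers are lowest in wildtype mice, and mouse 47 has the highest mitochondrial and the lowest luminal sum.

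Nuclear members varied together between mice of 1 genotype, by as much as between genotypes. They were higher in mouse 41 than in mouse 39 for 55 of 59 (57.0% of all genes), higher in mouse 37 than in mouse 40 for 56 (53.2%) and higher in mouse 47 than in mouse 49 for 56 (49.8%). The median ratio was 1.16-fold for 41 over 39, 1.18-fold for 37 over 40 and 1.21-fold for 47 over 49. The highest value was in heterozygous mouse 37 for 39 members (17.3% of all genes) and the lowest in homozygous mouse 49 for 36 (19.0%). Within a genotype, the median difference of a member between both mice was 0.22, 0.24 and 0.29 on the log2 scale in wildtype, heterozygous and homozygous mice. For all genes it was 0.21, 0.19 and 0.22, so the members' spread was near it in wildtype mice and larger in the mutant mice.

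Other genes with few exon bases shared part of this pattern. The 1111 other genes with at most 1200 exon bases had median deviations from their own means, on the log2 scale, of -0.03 and 0.11 in the wildtype, 0.21 and 0.01 in the heterozygous, and -0.10 and -0.17 in the homozygous mice. The 22 nuclear members of that length had -0.14 and 0.10, 0.22 and -0.05, and 0.05 and -0.25. Both sets were highest in mouse 37 and low in mouse 49, and they parted in mouse 47. The 6 members with over 4000 exon bases also had 0.22 in mouse 37 and -0.16 in mouse 49, where the 7141 other genes of that length had -0.04 and 0.04. The part of transcript length in the members' values was not tested.

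**Figure D4:**
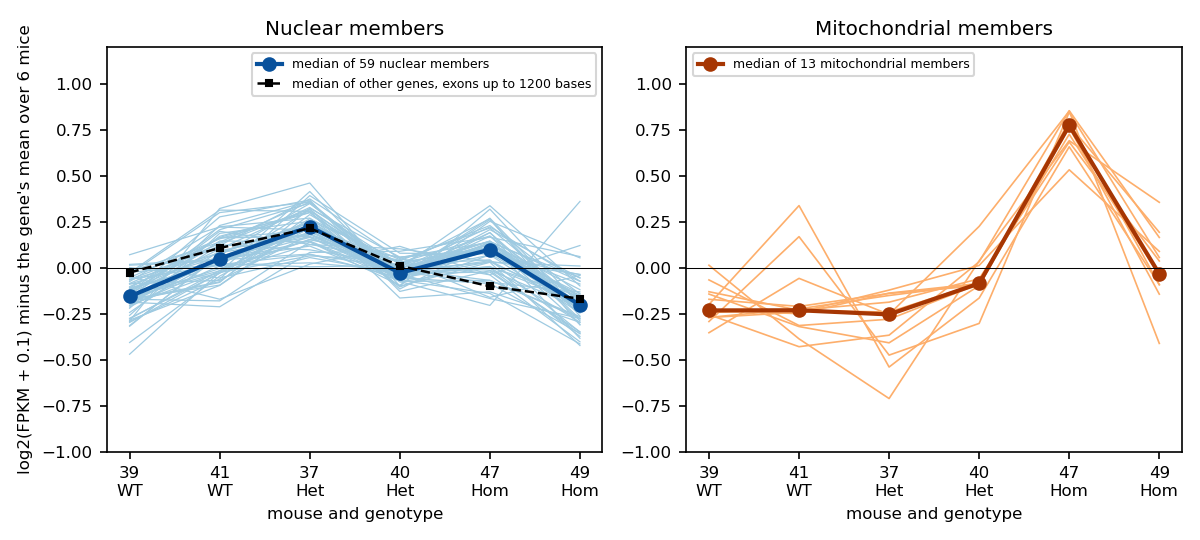
Deviation of log2(FPKM + 0.1) from the gene's own mean over the 6 mice, by mouse, for each nuclear member (left, thin blue lines) and each mitochondrial member (right, thin orange lines), with their medians (thick lines) and the median of other genes with up to 1200 exon bases (dashed). The nuclear median peaks at 0.22 in mouse 37 and is lowest at -0.20 in mouse 49, and the mitochondrial median is 0.77 in mouse 47 and below 0 in the other 5 mice.

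The mitochondrial members fell into 2 ranges of level. In the 6 mice mt-Nd1, mt-Nd2, mt-Nd4, mt-Nd5, mt-Nd6, mt-Cytb, mt-Co1 and mt-Atp8 ran from 522 to 20901 FPKM, while mt-Co2, mt-Atp6, mt-Co3, mt-Nd3 and mt-Nd4l ran from 2.90 to 37.1 FPKM. The low 5 are those with an annotated near-identical copy (at least 99% identity over at least 95% of the gene) in the nuclear genome. Those copies are unprocessed pseudogenes that lie side by side on chromosome 1, within a stretch at chr1:24611535-24616197 of GRCm38. Its ends are partial copies of mt-Nd4 (Gm28439, 876 of 1378 bases at 100%) and mt-Co1 (Gm29216, 483 of 1545 bases at 99.8%). Gm28661 matched 681 bases of mt-Co2 at 100%, Gm10925 matched 678 bases of mt-Atp6 at 100%, and Gm28438 matched 345 bases of mt-Nd3 with 1 mismatch. The FPKM of Gm10925 was 16.3 and 16.4 in the wildtype, 15.5 and 16.8 in the heterozygous, and 30.7 and 18.3 in the homozygous mice, near the 11.3 and 15.6, 9.97 and 11.2, and 25.0 and 14.4 of mt-Atp6. How fragments that match a gene and its copy were assigned is not given in the sources used here, so the levels of these 5 genes are uncertain and are not compared with those of the other 8.

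Neighbouring mitochondrial genes also share bases. The last bases of mt-Atp8 are the first of mt-Atp6, both genes of complex V on the plus strand, at chrM:7927-7969 of GRCm38. Capitals mark the start codon of mt-Atp6 and the stop codon of mt-Atp8.
mt-Atp8 and mt-Atp6 overlap: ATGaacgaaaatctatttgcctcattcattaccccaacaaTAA
These 43 bases belong to both genes, of the 204 exon bases of mt-Atp8 and the 681 of mt-Atp6. The overlap of mt-Nd4l with mt-Nd4 is 7 bases. The 14 bases shared by mt-Nd5 and mt-Nd6 are on opposite strands, and the libraries were stranded. The level of mt-Atp8, the highest of all members at 7910.5 to 20901 FPKM, rests on the shortest gene.

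All 13 mitochondrial members were higher in homozygous than in wildtype mice by their means (45.0% of all genes), or 12 after quantile normalization, and 1 mouse set most of that difference. Mouse 47 had the highest value of the 6 mice for all 13 (20.5% of all genes), from 1.25-fold to 1.84-fold above the next mouse. The median log2 fold change of the 13 was 0.57, or 1.48-fold, in homozygous against wildtype mice and 0.60 for the 8 members without a near-identical copy. Without mouse 47 the median of the 13 was 0.16, with 11 of 13 higher, and without mouse 49 it was 0.95. Both homozygous values were above both wildtype values for 10 of 13 (21.3% of all genes), and above both heterozygous ones for 10 (18.0%). Against heterozygous mice the homozygous mean was higher for all 13 (45.7%), with a median of 0.50, which was 0.15 with 11 of 13 higher without mouse 47 and 0.91 without mouse 49. In heterozygous mice 9 of 13 were higher than wildtype by means (47.2% of all genes), with a median log2 fold change of 0.07, but 4 of 13 after quantile normalization, with a median of -0.19. After scaling to the same sum without the mitochondrial genome 6 of 13 were higher. With that scaling all genes had a median of -0.09, and 9 of the 13 lay above it, as 9 lay above the median of all genes in the reported fit. Without mouse 37 the median of the 13 was 0.16, and without mouse 40 it was -0.05.

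Among complex I genes of the mitochondrial chromosome, mt-Nd1, which forms part of the ubiquinone channel, was at 5614 and 5798 FPKM in the wildtype, 6098 and 6364 in the heterozygous, and 11579 and 6582 in the homozygous mice. Its values were ordered by the number of mutant alleles, with mouse 47 well above mouse 49. Homozygous mice were 0.61 above wildtype on the log2 scale (standard error 0.51, limma adjusted p = 0.561). The gene mt-Nd2, for a proton-pumping subunit, was at 3409 and 3021 FPKM in the wildtype, 3156 and 4161 in the heterozygous, and 7352 and 4560.5 in the homozygous mice. It had the highest homozygous log2 fold change of the 13, 0.85 (standard error 0.44), adjusted p = 0.360 from limma. The only member read from the other strand, mt-Nd6, was at 522 and 533 FPKM in the wildtype, 579 and 636 in the heterozygous, and 911 and 670.1 in the homozygous mice. It too was ordered by allele number, with a homozygous log2 fold change of 0.57 (standard error 0.22), adjusted p = 0.272 from limma.

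The remaining complex I genes followed mouse 47. In mt-Nd4 the values were 3190.4 and 3152 FPKM in the wildtype, 3406 and 3532 in the heterozygous, and 6511 and 3514 in the homozygous mice, so mouse 49 lay among the heterozygous mice. In mt-Nd5 they were 2220.3 and 1964, 1847 and 2291, and 4198 and 2802 FPKM, with both homozygous mice above the other 4. The low mt-Nd3 and mt-Nd4l, of uncertain level, ranged from 5.89 to 14.3 and from 2.90 to 6.78 FPKM, and both homozygous mice were not above both wildtype mice in either gene.

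Complex III has 1 mitochondrial subunit, cytochrome b, which carries the electrons between the ubiquinol sites. Its gene mt-Cytb was at 7405 and 7209 FPKM in the wildtype, 7569 and 7798 in the heterozygous, and 14146 and 7549.8 in the homozygous mice. Mouse 49 lay within 5 mice that differed little, and mouse 47 stood above them by 1.81-fold. Of complex IV, mt-Co1, whose product holds the site where oxygen is reduced, was at 8143 and 7593, 7541 and 8415 (mouse 40), and 14739 and 8669.6 FPKM. The gene of the copper-containing subunit that receives electrons from cytochrome c, mt-Co2, was at 19.5 and 19.7, 20.3 and 22.1, and 37.1 and 23.7 FPKM. It was the third of the 3 members ordered by allele number (3.85% of all genes), with a homozygous log2 fold change of 0.60 (standard error 0.22), adjusted p = 0.249 from limma, and its level is uncertain for the reason above. Of complex V, mt-Atp8 was at 13072 and 9905, 7910.5 and 13293, and 20901 and 16571 FPKM, and the homozygous mice were above the other 4.

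**Figure D5:**
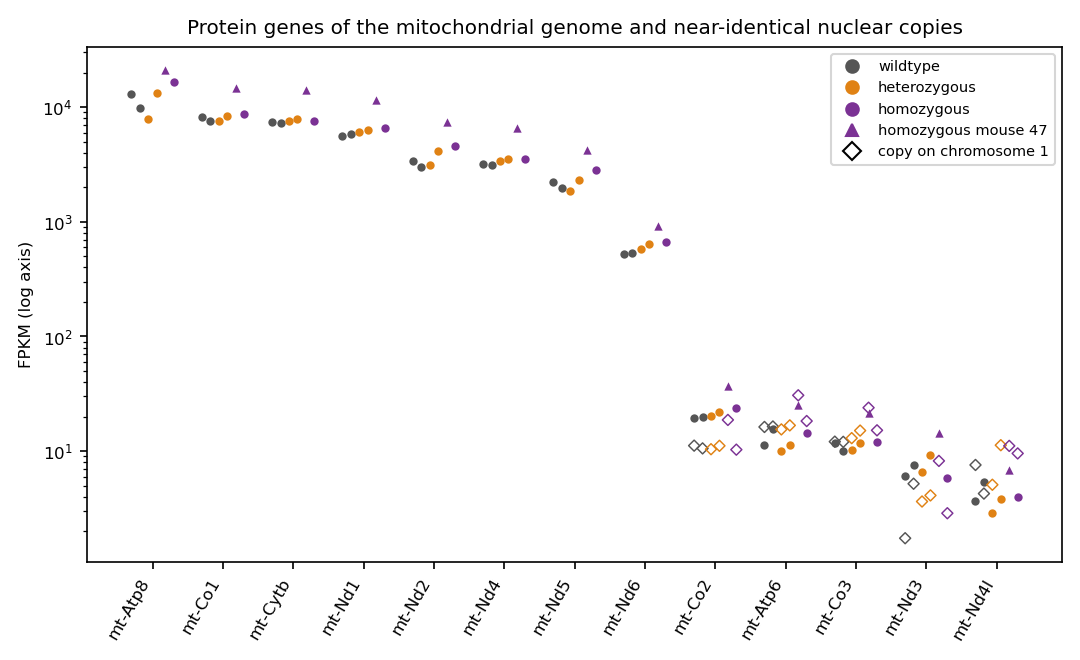
FPKM (log axis) of the 13 mitochondrial members, with the mice in the order 39, 41, 37, 40, 47 and 49 from left to right for each gene, coloured by genotype, a triangle for mouse 47 and open diamonds for the copy on chromosome 1. The 8 genes without a near-identical copy lie at 522 FPKM and above, the other 5 lie at 37.1 and below among their copies, and the triangle is the highest filled point of each gene.

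The mitochondrial ribosomal RNAs, which are not messengers and not members, also peaked in mouse 47. The small rRNA gene mt-Rnr1 was at 469 and 517 FPKM in the wildtype, 649.7 and 763 in the heterozygous, and 1746 and 716 in the homozygous mice, and mt-Rnr2 reached 2284 in mouse 47 against 643 to 936 in the others. Their homozygous log2 fold changes were 1.18 (adjusted p = 0.247 from limma) and 1.17 (adjusted p = 0.250 from limma). Spread within the homozygous pair, a median difference of 0.77 on the log2 scale for the 13 members, exceeded the 0.17 of each other genotype.

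Nuclear and mitochondrial members took different courses. The 13 mitochondrial members held 8.01% and 6.46% of the summed FPKM of all genes in the wildtype, 6.02% and 8.08% in the heterozygous, and 12.6% and 9.83% in the homozygous mice. The 59 nuclear members held 1.44% and 1.53%, 1.62% and 1.45%, and 1.39% and 1.40% in the same order. The ratio of the sums, mitochondrial over nuclear, was 5.58 and 4.21 in the wildtype, 3.72 and 5.57 in the heterozygous, and 9.07 and 7.02 in the homozygous mice. Both homozygous ratios were the highest of the 6, with heterozygous and wildtype ratios overlapping. No p-value is given for these sums, since the genes were chosen with earlier results known.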

How the data were processed

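Total RNA of 6 snap-frozen prostates was made into stranded mRNA libraries and sequenced by the authors, who aligned the reads to GRCm38 (mm10) with HISAT and deposited gene-level FPKM from Cufflinks for each mouse. Cuffnorm and bcl2fastq are also named in the submitters' processing notes, and versions and annotation are not given in the sources used here. Mice were grouped by the genotype in their labels.

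The 72 members, the gene lists and the tests were chosen with earlier results of these data known. On log2(FPKM + 0.1), 13818 genes that averaged 1 FPKM or more were fitted by limma 3.58.1 under R 4.3.3 (lmFit, eBayes with trend, all 6 mice, 3 genotypes), and p-values were adjusted over these genes after Benjamini and Hochberg. Fold changes on this scale understate the changes of low genes. The fit was tested on simulated data. Alternatives were pseudocounts of 1 and 0.01, no minimum, a minimum of 5, median scaling, quantile normalization, the same sum without the mitochondrial genome, no trend and leaving out each mouse. The set without the 5 mitochondrial genes with copies was added after seeing the data. The fragment counts behind the values are unknown, so no counting interval is given.

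Named genes were all mitochondrial members, the nuclear members highest and lowest in level per complex, those with the 6 largest positive and negative log2 fold changes against wildtype, any member called or ordered by allele number with an F-test p-value under 0.05, the muscle isoforms, and up to 3 genes per list with the smallest F-test p-values. Others (Ndufv1, Sdha, Uqcrfs1, Cyc1, Atp5b and Pbsn) were chosen after their values were seen. Positions and exon bases (all annotated exons of a gene joined) are from GENCODE M21, in which all 72 members were found. Copies were sought with blastn 2.17.0, and promoters are from RefSeq. Other steps used Python 3.11.15 with pandas 2.3.3. The values of 1 nuclear member are not reported here.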

Additional observations from a re-analysis of the deposited data

How the results depend on the processing

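No member was called under any of the 14 settings tried beside the reported one, and of the genes named only Bax and Bbc3 crossed the threshold. Of 108 differences of named genes from wildtype, 40 took the other sign in at least 1 setting, none of them called, with at most 0.59 on the log2 scale as reported. The median log2 fold change of the 13 mitochondrial members in homozygous against wildtype mice was 0.57, and from 0.16 (without mouse 47) to 0.95 (without mouse 49) when a mouse was left out. That of the nuclear members, 0.02, ran from -0.15 (without mouse 47) to 0.14 (without mouse 49) when a mouse was left out and was 0.18 after quantile normalization.

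Counts of members at an unadjusted limma p-value under 0.05 moved. In the reported fit the shares of all genes were 11.5% for the 3 genotypes together and 18.0% for homozygous against wildtype mice. They were 6.87% for heterozygous against wildtype and 6.39% for homozygous against heterozygous mice. The shares under the other settings are not given here, so the moved counts cannot be set against them. For the 3 genotypes together, 1 became 6 after quantile normalization, 4 after scaling to the same sum without the mitochondrial genome and 0 to 4 when a mouse was left out. In homozygous against wildtype mice 3 became 11, 8 and 0 to 7 in the same order. In heterozygous against wildtype mice 1 became 4 after quantile normalization, 0 without an intensity trend and 0 to 1 when a mouse was left out. In homozygous against heterozygous mice 1 became 3 after quantile normalization, 7 at the same sum, 3 without an intensity trend and 0 to 5 when a mouse was left out. Among the fits that left out a mouse, the highest count came without mouse 49 except in heterozygous against wildtype mice. The cause was not tested. Scaling to the same sum moved the median of all genes by 0.14 on the log2 scale in homozygous against heterozygous mice.

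No paired analysis was possible because the genotypes share no mouse numbers and the labels name no litter or batch. FPKM without fragment counts gives no counting error, 2 mice per genotype leave changes of moderate size uncalled, and levels of genes with near-identical copies are uncertain.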

Other observations

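Nuclear ATP synthase genes, which complete the pathway as complex V, took values like those of the nuclear members. With limma 0 of 17 passed the adjusted or the unadjusted threshold in the F-test (11.5% of all genes at an unadjusted p-value under 0.05). Of the 17, 14 had a heterozygous mean above wildtype (47.2% of all genes), with a median log2 fold change of 0.16. The homozygous mean was above wildtype for 6 (45.0%), with a median of -0.01. Atp5b, the catalytic beta subunit, was at 517 and 630.04 FPKM in the wildtype, 717 and 569 in the heterozygous, and 594 and 533 in the homozygous mice. Of subunits outside the 72, Cyc1, cytochrome c1 of complex III, was at 93.5 and 108, 129.8 and 112, and 117 and 104 FPKM in the same order. Cox6b2, known as the testis isoform of complex IV, was at 9.24 and 9.71, 8.51 and 6.22, and 4.91 and 3.65 FPKM, with both homozygous mice lowest and a log2 fold change of -1.14 (standard error 0.22), adjusted p = 0.121 from limma.

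Genes that serve the chain also gave no call. Of 44 tested assembly factors, 0 passed the adjusted F-test (0.101% of all genes) and 2 had an unadjusted F-test p-value under 0.05 (11.5%). They were Surf1, which helps to build complex IV, and Sdhaf1, which helps to build complex II. Surf1 was at 56.9 and 66.9 FPKM in the wildtype, 68.7 and 57.9 in the heterozygous, and 46.7 and 45.3 in the homozygous mice, with a log2 fold change of -0.42 (adjusted p = 0.230 from limma). Of 77 tested mitochondrial ribosome genes, 58 had a homozygous mean below wildtype (55.0% of all genes), with a median of -0.12. The adjusted test was passed by 0, and 3, all lower, had an unadjusted limma p-value under 0.05 (18.0% of all genes). Of 21 tested regulators, 10 had a higher homozygous mean than wildtype (45.0% of all genes) and 11 a lower one (55.0%). Their median log2 fold change was -0.02. With limma 0 passed the adjusted test, with 1 higher and 1 lower at an unadjusted p-value under 0.05 (18.0% of all genes). Esrra, a nuclear receptor that drives respiratory genes, was at 32.4 and 37.2 FPKM in the wildtype, 29.3 and 27.7 in the heterozygous, and 22.4 and 23.1 in the homozygous mice. Its genotypes did not overlap, and the homozygous log2 fold change was -0.61 (standard error 0.12), adjusted p = 0.128 from limma. Lrpprc, which stabilises mitochondrial messengers, was at 7.14 and 8.63, 9.47 and 9.25, and 9.95 and 11.8 FPKM, with a homozygous log2 fold change of 0.46 (adjusted p = 0.225 from limma). Of 13 tricarboxylic acid cycle genes, 11 had a higher homozygous mean than wildtype (45.0% of all genes) and 2 a lower one (55.0%). In the adjusted limma test 0 passed, with 2 higher and 1 lower at an unadjusted p-value under 0.05 (18.0% of all genes). Idh3a was at 19.3 and 20.9, 26.1 and 32.5, and 33.5 and 33.9 FPKM, with a homozygous log2 fold change of 0.74 (adjusted p = 0.121 from limma), and Fh1 at 35.9 and 37.3, 35.2 and 35.8, and 28.8 and 31.1 FPKM, with one of -0.29 (adjusted p = 0.252 from limma).

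Among 9 tested p53-linked mitochondrial genes, 2 passed the adjusted limma test in homozygous against wildtype mice (0.384% of all genes). Bax, which permeabilises the outer mitochondrial membrane, fell from 92.5 and 90.4 FPKM in the wildtype to 26.8 and 21.4 in the homozygous mice, with 67.6 and 58.9 in the heterozygous mice and a log2 fold change of -1.93 (adjusted p = 0.0207 from limma). Bbc3, a BH3-only activator of apoptosis, fell from 22.8 and 18.6 to 6.87 and 6.66 FPKM, with 13.3 and 11.6 in the heterozygous mice and a log2 fold change of -1.59 (adjusted p = 0.031 from limma). Both are known p53 targets. Their calls depended on the setting, with adjusted limma p-values up to 0.150 for Bax (above the threshold in 5 of the 14 other settings) and up to 0.191 for Bbc3 (in 8 of 14), while the log2 fold changes stayed between -2.09 and -1.77 and between -1.74 and -1.45. Leaving out mouse 39, 37, 40 or 47 ended both calls.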
